A study of Homo sapiens with 6 samples.

Results

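The 10 genes described here are 4 ligands of the vascular endothelial growth factor (VEGF) family (VEGFA, VEGFB, VEGFC and PGF), 4 of the receptors and co-receptors that bind them (KDR, FLT1, NRP1 and NRP2), and 2 adhesion genes of endothelial junctions (PECAM1 and ESAM). They were matched by gene symbol with no threshold on a measured value, although the set was drawn up with earlier results of these data known, and each matched 1 row of a table of 58302 genes. RNA was sequenced from PC-3, a human line established from a bone metastasis of a prostate carcinoma. PC-3-Bhlhe22 cells (3 libraries) carried a lentivirus that overexpresses the bHLH transcription factor gene BHLHE22, and PC-3-Vector cells (3 libraries) carried a blank lentivirus, so both groups were transduced. The labels name neither the promoter of the insert nor whether a clone or a pool of cells was used. They also do not say that replicates were grown separately, so p-values reflect only how much these libraries vary, and that variation may be technical.

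VEGF ligands are secreted dimers that drive the growth of blood and lymph vessels. VEGFA binds the tyrosine kinase receptors encoded by FLT1 (VEGFR-1) and KDR (VEGFR-2), VEGFB and placental growth factor bind FLT1, and VEGFC acts mainly through FLT4 (VEGFR-3), the receptor of lymphatic endothelium. Neuropilins are co-receptors without a kinase domain that bind both VEGF ligands and class 3 semaphorins. Carcinoma cells are a known source of VEGF ligands, while KDR, FLT1, PECAM1 and ESAM are best known from endothelial cells, and PECAM1 also from platelets and leukocytes.

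Counts summed to between 12186723 and 15949537 per library, and 15945 genes had enough counts to be tested. BHLHE22 had 98, 92 and 133 reads in the PC-3-Bhlhe22 libraries, against 1 read in each PC-3-Vector library. Each pair of libraries within a group differed by more than sampling noise, with a chi-square per degree of freedom of 10.98 to 22.48. In edgeR's quasi-likelihood test 49.4% of tested genes were called at a Benjamini-Hochberg adjusted p under 0.05, with 25.1% called higher and 24.3% called lower in PC-3-Bhlhe22 cells. Higher genes made up 50.7% of the calls with TMM scaling of the libraries (trimmed mean of M-values), and 64.0% with unscaled library sizes, a choice that shifted the median log2 fold change of all genes to 0.15. The epithelial markers KRT8, KRT18, KRT19 and EPCAM together reached 1071 to 1265 CPM (read counts relative to the TMM-scaled library size) in PC-3-Bhlhe22 libraries and 1105 to 1243 CPM in PC-3-Vector libraries. Of these 4, KRT8 and KRT18 were called lower (log2 fold changes -0.32 and -0.38), EPCAM was called higher (1.17), and KRT19 was not called (0.09). The luminal prostate gene KLK3, which encodes prostate-specific antigen, was listed at 0 in all 6 libraries.

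Of the 10 genes, 9 were tested and 4 were called. PECAM1, VEGFC and VEGFB were lower in PC-3-Bhlhe22 cells, NRP2 was higher, and VEGFA, PGF, KDR, NRP1 and ESAM did not pass. FLT1 had too few reads for the test. The 4 calls of 9 stand beside 49.4% of all tested genes, so the share of the group that changed was near the background. The groups did not overlap for the same 4 genes, 1 higher and 3 lower, against 60.5% of all tested genes, 30.6% higher and 29.9% lower. The median log2 fold change of the 9 tested genes was -0.09, against 0.00 for all tested genes. Because the samples are bulk RNA, fewer cells that express a gene and less RNA per cell cannot be told apart.

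**Figure D1:**
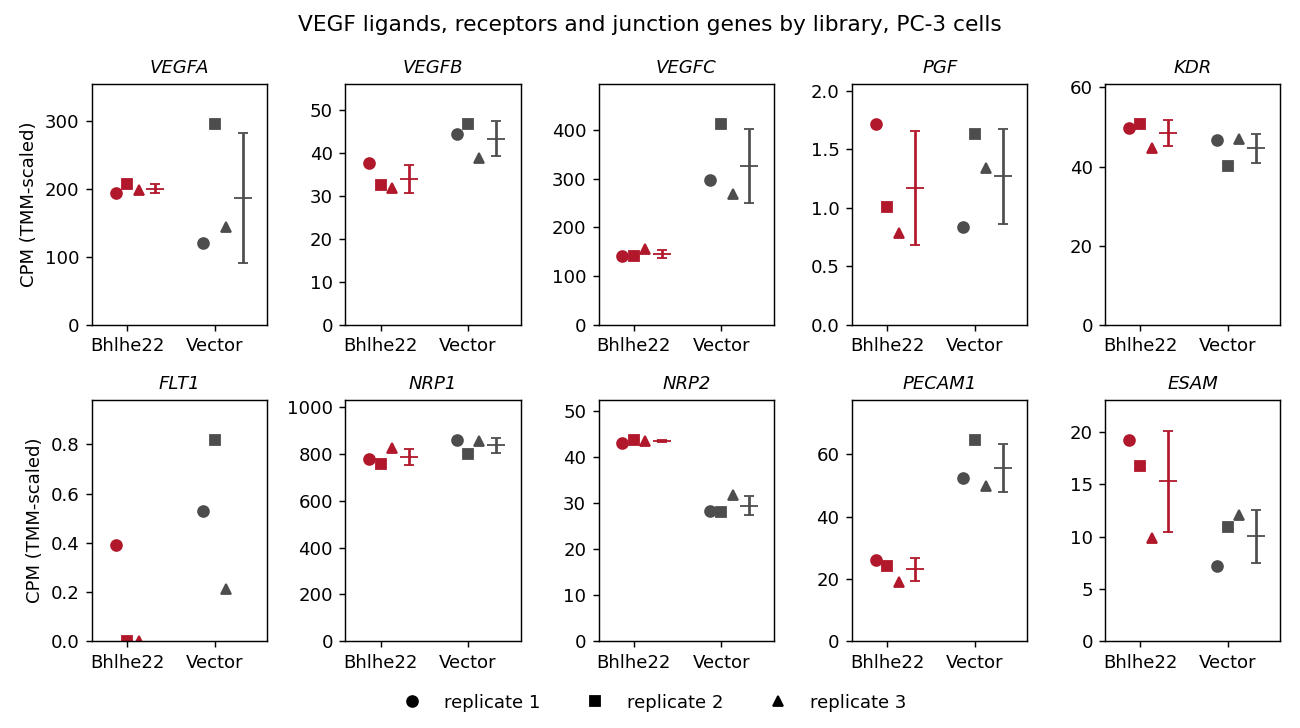
CPM of each gene in the 3 PC-3-Bhlhe22 libraries (red, left) and the 3 PC-3-Vector libraries (grey, right), with the mean and SD beside the points except for FLT1, which was not tested; the axes start at 0. VEGFC, VEGFB and PECAM1 lie lower in every PC-3-Bhlhe22 library, NRP2 lies higher in every one, and VEGFA shows 1 PC-3-Vector library (replicate 2) at 296 CPM, above all the others.

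VEGFC, the lymphangiogenic ligand (ENSG00000150630, chromosome 4, 176683538 to 176792727 on the minus strand of GRCh38), was the ligand with a large change. It had 141, 141 and 155 CPM in the PC-3-Bhlhe22 libraries, against 297, 412 and 269 CPM in the PC-3-Vector libraries. All PC-3-Bhlhe22 libraries lay below all PC-3-Vector libraries, and the spread was wider in the PC-3-Vector cells. VEGFC averaged 146 ± 8.2 CPM in PC-3-Bhlhe22 and 326 ± 76.0 CPM in PC-3-Vector cells (SD, n = 3 each), 2.24-fold lower in PC-3-Bhlhe22 cells. The log2 fold change was -1.16 (SE 0.16, 95% interval -1.53 to -0.79, adjusted p = 0.00103, edgeR quasi-likelihood), and 86.9% of tested genes had a smaller change in either direction. Leaving out any 1 library gave log2 fold changes of -1.28 to -0.96, and all 13 alternative fits kept the call.

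VEGFB, a ligand of FLT1 and NRP1 (ENSG00000173511, chromosome 11, 64234538 to 64238793, plus strand), was lower by a small margin. It had 37.8, 32.5 and 31.7 CPM in the PC-3-Bhlhe22 libraries, against 44.4, 46.8 and 38.9 CPM in the PC-3-Vector libraries. The groups did not overlap, but the highest PC-3-Bhlhe22 library and the lowest PC-3-Vector library were about 1 CPM apart. The log2 fold change was -0.35 (SE 0.12, 95% interval -0.62 to -0.08, adjusted p = 0.0368, edgeR quasi-likelihood), 1.28-fold lower. This call ended without PC-3-Bhlhe22 replicate 2 (adjusted p = 0.125) or 3 (0.107), and without PC-3-Vector replicate 1 (0.106) or 2 (0.108). It also ended with unscaled library sizes (adjusted p = 0.164, edgeR) and without the low-count filter (0.0599).

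VEGFA, the main angiogenic ligand and a classic hypoxia target (ENSG00000112715, chromosome 6, 43770184 to 43786487, plus strand), was not called. It had 195, 208 and 199 CPM in the PC-3-Bhlhe22 libraries, against 120, 296 and 144 CPM in the PC-3-Vector libraries. The PC-3-Bhlhe22 libraries agreed closely and lay between the PC-3-Vector libraries, whose highest value was 2.47 times the lowest. That range within PC-3-Vector cells was wider than for 95% of tested genes. The log2 fold change was 0.10 (95% interval -0.72 to 0.93, adjusted p = 0.826, edgeR quasi-likelihood). Without PC-3-Vector replicate 2 it was 0.60 and passed the test (adjusted p = 0.00522, edgeR quasi-likelihood). Without PC-3-Vector replicate 1 or 3 the sign turned, with log2 fold changes of -0.13 and -0.05 and adjusted p = 0.747 and 0.931 (edgeR).

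PC-3-Vector replicate 2 was the highest PC-3-Vector library for each of the 4 ligands and for PECAM1, 5 of the 9 tested genes, and the lowest for KDR, NRP1 and NRP2. Over all tested genes it was the highest of its group for 35.2% and the lowest for 36.3%. It was also the highest of its group for 8 of 12 hypoxia-induced genes on a fixed list. The part of this library's state in the ligand values was not tested beyond leaving it out. PGF, the placental ligand of FLT1 (ENSG00000119630, chromosome 14), was near the limit of detection. It had 22, 14 and 13 reads in the PC-3-Bhlhe22 libraries, against 11, 24 and 19 reads in the PC-3-Vector libraries. These values overlapped (log2 fold change -0.15, 95% interval -1.03 to 0.73, adjusted p = 0.764, edgeR quasi-likelihood), and without PC-3-Bhlhe22 replicate 3 or PC-3-Vector replicate 2 the sign turned (0.092 and 0.073).

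VEGFC had fewer reads than VEGFA in every PC-3-Bhlhe22 library and more in every PC-3-Vector library. The ratio of VEGFC to VEGFA CPM was 0.724, 0.679 and 0.779 in the PC-3-Bhlhe22 libraries, against 2.48, 1.39 and 1.86 in the PC-3-Vector libraries. The difference in this ratio does not depend on library scaling or on gene length, but the order of the levels per length does. Per kilobase of merged exons, VEGFC stood above VEGFA in both groups, and the per-library ratio averaged 4.34 in PC-3-Bhlhe22 and 11.4 in PC-3-Vector cells. Per kilobase of the median protein-coding transcript, a length chosen after the data were seen, it was 0.386, 0.361 and 0.415 in the PC-3-Bhlhe22 libraries, against 1.32, 0.741 and 0.991 in the PC-3-Vector libraries. By that length VEGFC was below VEGFA in every PC-3-Bhlhe22 library, while the PC-3-Vector libraries lay on both sides of 1. VEGFA has 32 annotated transcripts whose merged exons cover 14431 bases, against a median protein-coding transcript of 1098.5 bases, and the counts do not separate isoforms. That median is over 26 protein-coding transcripts, while VEGFC has 1, of 2064 bases. Whether the annotated transcripts are full length was not checked.

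**Figure D2:**
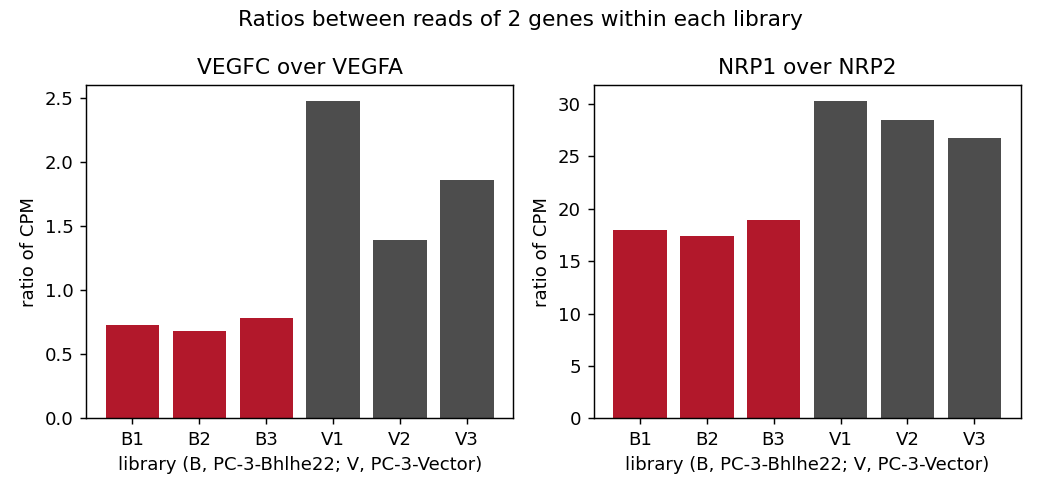
Ratio of VEGFC to VEGFA CPM (left) and of NRP1 to NRP2 CPM (right) in each library, PC-3-Bhlhe22 in red (B1 to B3) and PC-3-Vector in grey (V1 to V3), with linear axes from 0. Both ratios are lower in every PC-3-Bhlhe22 library: 0.679 to 0.779 against 1.39 to 2.48 for VEGFC over VEGFA, and 17.4 to 19.0 against 26.8 to 30.3 for NRP1 over NRP2.

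NRP2, the neuropilin tied to VEGFC and to SEMA3F (ENSG00000118257, chromosome 2, 205681990 to 205798133, plus strand), was the member that rose. It had 43.2, 43.6 and 43.6 CPM in the PC-3-Bhlhe22 libraries, against 28.3, 28.2 and 31.8 CPM in the PC-3-Vector libraries. The PC-3-Bhlhe22 libraries were nearly equal and all lay above the PC-3-Vector libraries. The log2 fold change was 0.56 (SE 0.09, 95% interval 0.34 to 0.78, adjusted p = 0.00236, edgeR quasi-likelihood), 1.48-fold higher. Leaving out any 1 library gave 0.53 to 0.63, and all 13 alternative fits kept the call. Its size was ordinary here: 59.5% of tested genes changed less.

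NRP1, the co-receptor of VEGFA and SEMA3A (ENSG00000099250, chromosome 10, 33177492 to 33336262, minus strand), had the most reads of the 10 genes. It had 778, 758 and 826 CPM in the PC-3-Bhlhe22 libraries, against 857, 801 and 853 CPM in the PC-3-Vector libraries. The groups overlapped, and the log2 fold change was -0.09 (95% interval -0.26 to 0.08, adjusted p = 0.342, edgeR quasi-likelihood). With unscaled library sizes it was 0.057 (adjusted p = 0.581, edgeR). The ratio of NRP1 to NRP2 CPM was 18.0, 17.4 and 19.0 in the PC-3-Bhlhe22 libraries, against 30.3, 28.4 and 26.8 in the PC-3-Vector libraries.

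KDR, the main signalling receptor of VEGFA (ENSG00000128052, chromosome 4, 55078477 to 55125589, minus strand), was well detected in these epithelial cells. It had 49.7, 50.8 and 44.6 CPM in the PC-3-Bhlhe22 libraries, against 46.6, 40.2 and 46.9 CPM in the PC-3-Vector libraries. The values overlapped (log2 fold change 0.12, 95% interval -0.12 to 0.36, adjusted p = 0.373, edgeR quasi-likelihood). FLT1, the other VEGFA receptor (ENSG00000102755, chromosome 13), had 5, 0 and 0 reads in the PC-3-Bhlhe22 libraries, against 7, 12 and 3 reads in the PC-3-Vector libraries. The ratio of summed counts, 5 against 22, was 0.221 after scaling, with an exact 95% interval of 0.0652 to 0.597 that covers counting error only. Tested with no low-count filter, FLT1 did not pass (log2 fold change -2.06, edgeR quasi-likelihood adjusted p = 0.173). Of the family members outside the 10 genes, FLT4, the VEGFC receptor, was listed at 0 in all 6 libraries, where a count of 0 allows up to 0.180 to 0.234 CPM per library. The ligand gene VEGFD averaged 0.385 ± 0.137 CPM in PC-3-Bhlhe22 and 0.866 ± 0.348 CPM in PC-3-Vector cells (SD, n = 3 each), too low for the test. Without PC-3-Vector replicate 1, VEGFD entered the test and was called lower. Tested on all 6 libraries with no low-count filter, VEGFD was not called.

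PECAM1, which encodes the homophilic adhesion receptor CD31 (ENSG00000261371, chromosome 17, 64319415 to 64413776, minus strand), had the largest change of the 9 tested genes. It had 26.2, 24.0 and 19.1 CPM in the PC-3-Bhlhe22 libraries, against 52.6, 64.5 and 49.9 CPM in the PC-3-Vector libraries. Every PC-3-Bhlhe22 library lay below every PC-3-Vector library. PECAM1 averaged 23.1 ± 3.6 CPM in PC-3-Bhlhe22 and 55.7 ± 7.8 CPM in PC-3-Vector cells (SD, n = 3 each), 2.41-fold lower in PC-3-Bhlhe22 cells. The log2 fold change was -1.27 (SE 0.15, 95% interval -1.62 to -0.91, adjusted p = 0.000602, edgeR quasi-likelihood), and 89.4% of tested genes changed less. Leaving out any 1 library gave -1.36 to -1.14, and all 13 alternative fits kept the call.

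ESAM, an adhesion molecule of endothelial tight junctions and platelets (ENSG00000149564, chromosome 11, 124752583 to 124762290, minus strand), did not pass. It had 19.2, 16.7 and 9.90 CPM in the PC-3-Bhlhe22 libraries, against 7.18, 10.9 and 12.0 CPM in the PC-3-Vector libraries. The third PC-3-Bhlhe22 library lay within the PC-3-Vector range. The log2 fold change was 0.60 (95% interval -0.07 to 1.27, adjusted p = 0.122, edgeR quasi-likelihood). Without PC-3-Bhlhe22 replicate 3 it was 0.84 and passed (adjusted p = 0.0243, edgeR quasi-likelihood).

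Most other endothelial markers had few or no reads. Of 16 endothelial markers, 4 had enough reads to be tested, 1 was called lower and 0 higher, against a background of 49.4% called. EMCN, ERG, SOX17 and ECSCR were listed at 0 in all 6 libraries, and the junctional cadherin gene CDH5 had 0 CPM in PC-3-Bhlhe22 and 0.045 CPM in PC-3-Vector cells. The called marker was ROBO4, a guidance receptor gene, with 14.6 ± 1.3 CPM in PC-3-Bhlhe22 and 20.4 ± 2.9 CPM in PC-3-Vector cells (SD, n = 3 each; log2 fold change -0.48, edgeR quasi-likelihood adjusted p = 0.0242). ENG, the gene of the TGF-beta co-receptor endoglin, was not called, with 16.6 ± 0.57 CPM in PC-3-Bhlhe22 and 16.6 ± 1.9 CPM in PC-3-Vector cells (SD, n = 3 each). Its mean, not scaled by gene length, was above that of ESAM in both groups. In PC-3-Bhlhe22 replicate 1, however, ESAM was higher (19.2 against 16.6 CPM). The summed level of the 16 markers was 36.6 to 38.7 CPM in PC-3-Bhlhe22 and 40.4 to 47.1 CPM in PC-3-Vector libraries. Among 8 blood and platelet markers, TYROBP, HBB and GP9 were listed at 0 in every library, and the summed level was 6.39 to 6.79 CPM in PC-3-Bhlhe22 and 9.58 to 11.8 CPM in PC-3-Vector libraries. The platelet integrin gene ITGA2B and the monocyte gene CD14 were called lower (log2 fold changes -0.76 and -2.33) and the platelet chemokine gene PF4 was called higher (1.13), each with a mean of 7.68 CPM or less. PECAM1 alone had more reads than the 16 endothelial markers together in each PC-3-Vector library, and fewer in each PC-3-Bhlhe22 library. Of 7 fibroblast and mural markers 4 were tested, of which COL1A1 and COL3A1 were called lower (-0.47 and -3.04) and LUM higher (2.16). The list's summed level was 54.7 to 58.4 CPM in PC-3-Bhlhe22 and 76.8 to 85.2 CPM in PC-3-Vector libraries.

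**Figure D3:**
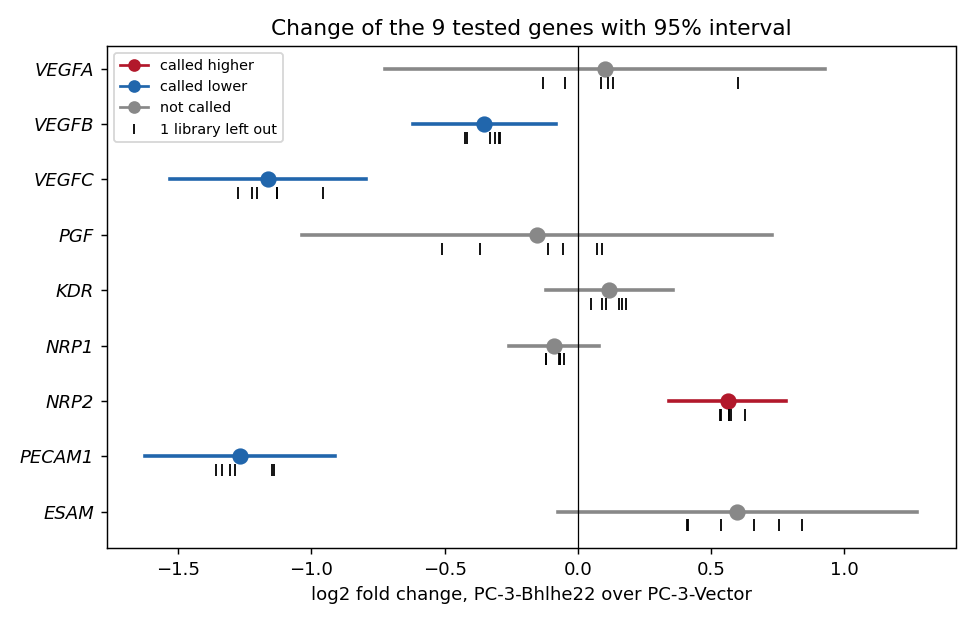
Log2 fold change (PC-3-Bhlhe22 over PC-3-Vector) of the 9 tested genes with its 95% interval, in red where called higher, blue where called lower and grey where not called; black ticks give the value with 1 library left out. The intervals and ticks of VEGFC, PECAM1, NRP2 and VEGFB all lie on 1 side of 0, with those of VEGFB the nearest to 0 among them. The ticks of VEGFA run from -0.13 to 0.60, and those of PGF cross 0.

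Levels of different genes were compared per kilobase of merged exons. In PC-3-Bhlhe22 cells the order was NRP1 (68.3 CPM per kilobase), VEGFC (60.2), VEGFB (22.0), VEGFA (13.9), KDR (7.37), ESAM (5.23), NRP2 (3.13), PECAM1 (2.98), PGF (0.196) and FLT1 (0.010). In PC-3-Vector cells it was VEGFC (135), NRP1 (72.6), VEGFB (28.1), VEGFA (12.9), PECAM1 (7.17), KDR (6.79), ESAM (3.44), NRP2 (2.12), PGF (0.213) and FLT1 (0.041). The neighbours whose library ranges overlapped were NRP2 and PECAM1 in PC-3-Bhlhe22 cells, and VEGFA with PECAM1 and PECAM1 with KDR in PC-3-Vector cells. PECAM1 had rank 8 of the 10 genes in PC-3-Bhlhe22 cells and rank 5 in PC-3-Vector cells. Per kilobase of the median protein-coding transcript the order changed: NRP1 had the highest mean in both groups, and in PC-3-Bhlhe22 cells VEGFA (182) stood above VEGFC (70.6). In PC-3-Vector cells the means of VEGFA (170) and VEGFC (158) lay close, their libraries overlapped, and no order between them is given. PGF and FLT1 were lowest under both lengths. The median protein-coding transcript was 581 bases for ESAM and 716 for PECAM1, against 2920 and 7759 bases of merged exons. Levels by that length may rest on incomplete transcripts, which was not checked.

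The RefSeq promoters of 3 called genes are shown (that of PECAM1 was not used here) because BHLHE22 belongs to the bHLH factors, which bind E-boxes of the form CANNTG. Each is 300 bases of GRCh38.p14 read 5′ to 3′ on the gene's strand, 250 before to 50 after the RefSeq start, with E-boxes in capitals. They lie at chr4:176792873-176793172 (VEGFC, minus strand), chr11:64234334-64234633 (VEGFB, plus strand) and chr2:205682251-205682550 (NRP2, plus strand). The VEGFC window lies wholly outside the gene position given above, which ends at 176792727.
VEGFC: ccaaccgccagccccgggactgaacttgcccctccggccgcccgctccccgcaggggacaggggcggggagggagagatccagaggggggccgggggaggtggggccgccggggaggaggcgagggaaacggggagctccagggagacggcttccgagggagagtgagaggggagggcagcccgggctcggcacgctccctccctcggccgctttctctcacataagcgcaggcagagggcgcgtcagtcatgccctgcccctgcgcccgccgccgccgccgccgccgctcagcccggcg
VEGFB: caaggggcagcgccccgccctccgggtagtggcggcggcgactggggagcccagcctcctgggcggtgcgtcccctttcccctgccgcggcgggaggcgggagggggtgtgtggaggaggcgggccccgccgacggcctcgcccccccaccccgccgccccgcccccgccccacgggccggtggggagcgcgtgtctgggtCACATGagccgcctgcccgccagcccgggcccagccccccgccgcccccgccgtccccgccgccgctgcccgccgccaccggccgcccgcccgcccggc
NRP2: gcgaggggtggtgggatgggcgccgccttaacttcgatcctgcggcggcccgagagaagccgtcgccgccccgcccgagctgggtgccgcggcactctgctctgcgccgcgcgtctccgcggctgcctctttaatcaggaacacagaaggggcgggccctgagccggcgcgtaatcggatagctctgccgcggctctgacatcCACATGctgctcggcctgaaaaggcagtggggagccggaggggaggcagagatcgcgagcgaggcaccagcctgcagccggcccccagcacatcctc
The VEGFC window held no E-box, while VEGFB and NRP2 each held 1, both CACATG, 49 and 47 bases before the start. Of members not called, KDR held 1 E-box, and PGF held 1 in a window and 0 in another. No promoter of VEGFA, NRP1 or ESAM was searched. The window of FLT1, which was not tested, held 0. An E-box was found in 68.7% of 35116 promoters of this length, searched on both strands. The hypoxia motif core ACGTG (21.4% of all promoters), CATATG (3.04%), CAGCTG (17.9%) and the AP-1 motif TGANTCA (7.71%) were in none of the 3 windows; CATATG and CAGCTG are forms of CANNTG. The 3 windows were 76.3%, 84.7% and 70.0% G and C, in the order printed, against a median of 58.7% over all promoters.

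Partners of the neuropilins (class 3 semaphorins, plexins and GIPC1) changed in both directions. Of 13 tested, 3 were called higher and 6 lower, against 25.1% and 24.3% of all tested genes. SEMA3A, a repulsive guidance ligand of NRP1, reached 76.3 ± 8.0 CPM in PC-3-Bhlhe22 and 19.3 ± 3.5 CPM in PC-3-Vector cells (SD, n = 3 each; log2 fold change 1.98, edgeR quasi-likelihood adjusted p = 0.000127). The semaphorin gene SEMA3E and the plexin receptor gene PLXNA2 rose by 1.86 and 0.95, while PLXNA3 fell by 0.85 on the log2 scale. SEMA3F, the ligand of NRP2, averaged 170 ± 15.2 CPM in PC-3-Bhlhe22 and 205 ± 12.0 CPM in PC-3-Vector cells (log2 fold change -0.28, edgeR quasi-likelihood adjusted p = 0.0388). The count of lower genes was 3 without PC-3-Bhlhe22 replicate 3, and with unscaled library sizes 5 were higher and 3 lower. The list's median log2 fold change was -0.28.

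Regulators of VEGFA transcription did not move together. Of 10 tested, 2 were called higher and 3 lower, near the 25.1% and 24.3% of all tested genes, with a median of -0.21, and without PC-3-Vector replicate 3 the count of lower genes was 5. HIF1A, the oxygen-regulated subunit of the hypoxia factor, fell by 0.71 on the log2 scale, to 866 ± 126 CPM in PC-3-Bhlhe22 cells, against 1415 ± 206 CPM in PC-3-Vector cells (SD, n = 3 each; adjusted p = 0.00446, edgeR quasi-likelihood). VHL, whose product marks HIF subunits for degradation, fell by 1.05, and the oxygen sensor gene EGLN1 rose by 0.53. MYC rose by 3.16 on the log2 scale. EPAS1, the gene of HIF-2alpha, had a log2 fold change of 0.71 with adjusted p = 0.0604 (edgeR quasi-likelihood). Of 12 hypoxia-induced genes 3 were called higher and 0 lower, beside 25.1% higher and 24.3% lower of all tested genes: PGK1 (0.65), PDK1 (0.30) and PFKFB4 (0.43). The calls of PDK1 and PFKFB4 ended when single libraries were left out, so that 1 gene was called without PC-3-Bhlhe22 replicate 2 or 3, while 5 were called without PC-3-Vector replicate 2 and 6 with unscaled library sizes.

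Other angiogenic factors were higher more often than lower. Of 20 tested, 11 were called higher and 2 lower, with a median log2 fold change of 0.77, against 25.1% and 24.3% of all tested genes and a median of 0.00. CXCL8, the chemokine interleukin-8, had a log2 fold change of 2.26 and HBEGF, an EGF receptor ligand, one of 2.13. APLN, the ligand of the apelin receptor, reached 51.5 ± 6.6 CPM in PC-3-Bhlhe22 and 11.6 ± 2.3 CPM in PC-3-Vector cells (SD, n = 3 each; log2 fold change 2.15, edgeR quasi-likelihood adjusted p = 0.000149). TYMP, thymidine phosphorylase, rose by 1.53 on the log2 scale. The 2 lower genes were FGF2 and PDGFB (log2 fold changes -1.09 and -0.53), named after their values were seen, and 1 gene was lower without PC-3-Bhlhe22 replicate 1, 2 or 3.

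Secreted angiogenesis inhibitors split evenly, with 3 of 8 tested genes called higher and 3 lower, beside 25.1% and 24.3% of all tested genes. THBS1, the gene of thrombospondin-1, reached 379 ± 44.4 CPM in PC-3-Bhlhe22 and 97.3 ± 5.8 CPM in PC-3-Vector cells (log2 fold change 1.96, edgeR quasi-likelihood adjusted p = 3.35e-05). The angiostatic chemokine gene CXCL11 had 144 reads in PC-3-Bhlhe22 cells and 0 in PC-3-Vector cells, at least 46.6-fold higher with a floor of 3 counts over the group. COL18A1, the gene that holds endostatin, fell by 1.01, and SPARC, a matricellular protein gene, fell by 3.37 on the log2 scale. The list's median was -0.10, also with CXCL11 at its bound.

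Junctional adhesion genes related to PECAM1 and ESAM were called higher in 5 and lower in 2 of 11 tested cases, beside 25.1% and 24.3% of all tested genes, with a median of -0.02. MCAM (CD146), an adhesion molecule of vessels and melanoma, rose by 1.15 on the log2 scale, CD47 by 0.94, CLMP by 0.61 and NECTIN2 by 0.46. The 2 lower genes were CXADR and ALCAM (log2 fold changes -1.26 and -0.75), named after their values were seen. Among 4 partners of PECAM1 signalling, 3 were tested and CTNNB1 was called higher (0.33, adjusted p = 0.0220, edgeR quasi-likelihood). That call ended without PC-3-Bhlhe22 replicate 2 or 3 or PC-3-Vector replicate 1 or 2 (adjusted p = 0.0731, 0.0623, 0.0743 and 0.0591, edgeR). The phosphatase genes PTPN6 and PTPN11, whose products bind the tail of PECAM1, had log2 fold changes of 0.13 and -0.09 and were not called.

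Genes that signal below VEGF receptors were called higher in 5 and lower in 4 of 20 tested cases, near the 25.1% and 24.3% of all tested genes, with a median of -0.03. The adapter gene SH2D2A, whose product binds KDR, reached 8.08 ± 1.79 CPM in PC-3-Bhlhe22 and 2.07 ± 0.79 CPM in PC-3-Vector cells (log2 fold change 1.97, edgeR quasi-likelihood adjusted p = 0.00155). The kinase genes FYN and AKT1 rose by 0.67 and 0.45, and PRKCA, protein kinase C alpha, fell by 0.99 on the log2 scale. The counts moved when libraries were left out: 3 were higher and 1 lower without PC-3-Bhlhe22 replicate 2, 3 and 2 without replicate 3, 3 were higher without PC-3-Vector replicate 1, and 2 were lower without PC-3-Vector replicate 2. With unscaled library sizes 1 was lower, and without the low-count filter 2.

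**Figure D4:**
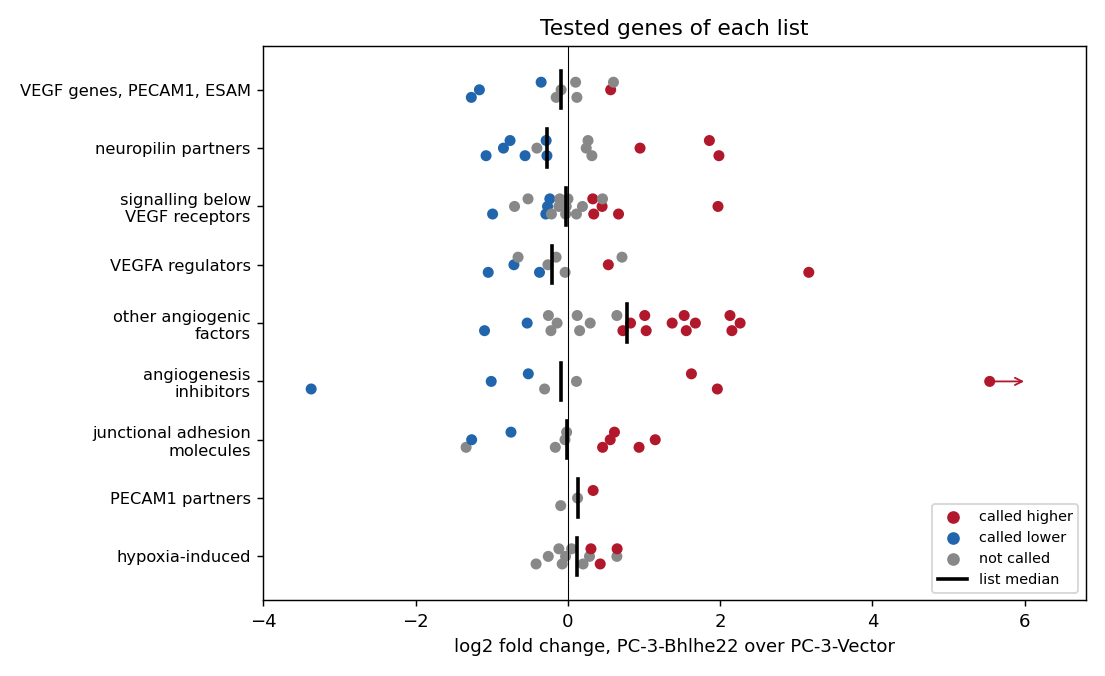
Log2 fold change of each tested gene (points, PC-3-Bhlhe22 over PC-3-Vector) in the 10-gene group at the top and in 8 related lists below it, coloured by the call, with the list median as a black bar; the arrow marks CXCL11, drawn at its lower bound. Most lists hold points on both sides of 0, and the other angiogenic factors have the highest median, 0.77.

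The genes most like each called member over the 6 libraries, by Pearson's r of log2 CPM, were BCAR3 (0.999) and GDE1 (0.998) for VEGFC, and PLEKHA8 (0.999) and GMCL1 (0.999) for PECAM1. For NRP2 they were HAT1 (1.000) and RMI2 (0.999), and for VEGFB FSIP1 (0.995) and KDM5A (0.995). For VEGFA they were SPATA6L (0.996) and CNOT9 (0.973), for PGF STARD4 (0.999) and TM4SF19 (0.988), for KDR CROCCP2 (0.976) and PLXNA1 (0.975), for NRP1 MT-TQ (0.985) and TACC1 (0.982), and for ESAM NATD1 (0.988) and PDIA6 (0.986). These are descriptions over 13497 genes that share the same 6 libraries. An r above 0.95 was reached by 1163 genes for VEGFC, 1534 for PECAM1 and 1719 for NRP2, and by 4 genes for VEGFA. Because r was taken over both groups, genes whose groups differ correlate with one another through that difference. Regulation in common was not tested.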

How the data were processed

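The authors deposited whole-number read counts per gene and FPKM values for 58302 Ensembl genes in 6 libraries, per the file headers. Per the submitters' processing notes, HISAT2 2.1.0 and StringTie 1.3.4b were used, beside CASAVA 1.8 and edgeR, with GRCh38 (hg38). The role of each tool, the counting options and strandedness are not given there or in the labels. Columns headed control were taken as PC-3-Vector. The authors' deposited FPKM values imply gene lengths up to 1.93 times the merged exons of GENCODE release 29, so levels were recomputed per kilobase of merged exons, and the FPKM values were used only for that check. Positions equal GENCODE's for 97.36% of 58039 shared genes and for 9 of the 10 genes here, KDR being the exception. Antisense genes that share exons with VEGFA, NRP1 and NRP2 had 30 counts or fewer per group.

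Genes kept by edgeR's filterByExpr (15945, at least 99.78% of each library's counts) were tested with edgeR 4.0.16 (R 4.3.3) by the quasi-likelihood test, TMM scaling, robust dispersions and group as the only term, 2-sided, with Benjamini-Hochberg adjustment over all tested genes and a threshold of 0.05. CPM are counts per TMM-scaled library. The SE is the log2 fold change divided by the square root of F, and the 95% interval uses the t quantile of the test's degrees of freedom. log2 CPM for likeness used a prior count of 2. The procedure was tested on simulated data. No column lacked a sample (0 unmapped). Alternatives were the replicate block, DESeq2 1.42.0, limma-voom (limma 3.58.1), other scalings and filters, a threshold of 0.01 and leaving out each library. A second gene length was added after the data were seen. From each list up to 4 called genes whose groups do not overlap are named, by smallest p, and of cell type markers all called ones; SEMA3F, EPAS1, PTPN6 and PTPN11 were added for their roles after their values were seen. FGF2, PDGFB, CXADR and ALCAM, the lower calls of their lists, were also named after their values were seen. For likeness the 2 genes of highest r with a mean of at least 1 CPM are given. The members, lists and rules were chosen with earlier results of these data known.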

Additional observations from a re-analysis of the deposited data

How the results depend on the processing

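The calls of VEGFC, PECAM1 and NRP2 held in all 13 alternative fits. VEGFB was -0.20 (adjusted p = 0.164) with unscaled library sizes and -0.33 (0.0599) without the low-count filter, and NRP1 turned to 0.057 with unscaled library sizes (edgeR quasi-likelihood). Leaving out 1 library gave log2 fold changes of -0.42 to -0.29 for VEGFB, -0.13 to 0.60 for VEGFA, -0.51 to 0.092 for PGF and 0.41 to 0.84 for ESAM, and 1 to 2 members called higher. A threshold of 0.01 left 4962 genes called (2480 higher, 2482 lower) and 3 members. The cause was not tested for any of these. The level of VEGFC over VEGFA averaged 0.387 over the PC-3-Bhlhe22 libraries and 1.02 over the PC-3-Vector libraries (0.741 to 1.32) with median transcript lengths, by construction of that length.

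Samples with the same replicate number did not deviate together (correlations 0.0054, -0.027 and 0.011). These values cannot show whether such samples were prepared as pairs, and the labels do not say. With the replicate number as a block, 7292 genes were called against 7876 without it, and the same 4 members were called (VEGFB -0.35, adjusted p = 0.0448, edgeR). The block left 3 neuropilin partners and 2 genes below VEGF receptors called lower, and PDK1 lost its call (adjusted p = 0.053, edgeR), which left 2 hypoxia-induced genes called. Depth limits FLT1, PGF and the untested markers, where a few reads decide the value.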
